A study of Mus musculus with 79 samples.

Results

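The genes described here are 10 markers of the fields of the hippocampus, out of 55471 genes in the count table. Prox1, Dsp, C1ql2 and Calb1 mark granule cells of the dentate gyrus. Trhr marks the ventral dentate gyrus. Wfs1 and Fibcd1 mark CA1 pyramidal cells, Dcn marks ventral CA1, Amigo2 marks CA2, and Zbtb20 is found in the excitatory neurons of all hippocampal fields. They were chosen by symbol, as markers known from the literature, but with earlier results of these data known. Each symbol matched a single gene identifier. All 10 passed the filter on low counts in both regions.

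The data are bulk RNA sequencing of 79 libraries from 40 male wild-type CD-1 mice, 40 libraries of the ventral hippocampus (vHipp) and 39 of the medial prefrontal cortex (mPFC). The mice were 9–10 weeks old, from an outbred stock, and housed in groups. CSDS mice were defeated by a different aggressor on each of 21 days and went back to their own cage after each defeat, and CTRL mice stayed group-housed. All mice then lived in the social box, a larger arena, and received a single intraperitoneal injection of saline or (R,S)-ketamine (10 mg/kg), and tissue was punched from frozen brain slices 7 days after it. There were 10 mice in each of the 4 groups of stress and treatment. The mPFC had 9 libraries for CSDS mice given ketamine, since the mPFC of mouse 5 was not analysed here. Social rank and social box, which the study recorded, were not used here. Each social box group was wholly CSDS or wholly CTRL.

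The hippocampus passes information from granule cells of the dentate gyrus through their mossy fibers to CA3, and from there to CA1. Each field is built of its own type of excitatory neuron, recognised by its own set of expressed genes, and these genes also differ between the dorsal and the ventral pole. A punch of tissue holds parts of several fields, so the levels of such markers in bulk RNA depend on which fields the punch took. The ventral pole is known for its links to emotion and to the stress response, and it projects to the mPFC.

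Libraries held from 11782570 to 41767119 counts in the vHipp (median 20121099) and from 11726129 to 34501588 in the mPFC (median 19519631). No pair of libraries of a group was identical. In the vHipp, 2 libraries of saline-treated CSDS mice, from mice 9 and 13, had 644.8 and 67.21 CPM (counts scaled to the library total) of Ttr, the leading gene of the choroid plexus. All other libraries of both regions had at most 50 CPM of it. Where leaving these libraries out moved a marker across an unadjusted p of 0.05, both values are given. Groups of 8 mice, 4 CTRL and 4 CSDS mice with consecutive numbers within each arm, are called sets below. There were 5 sets, and the libraries of a set carry adjoining library numbers.

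The dentate markers come first. Prox1, a homeobox transcription factor that sets the identity of granule cells, is on chromosome 1 (GRCm38, 190118035 to 190170714, minus strand). Dsp encodes desmoplakin, a protein of cell junctions, on chromosome 13 (38151294 to 38198577, plus strand). C1ql2 encodes a secreted C1q-like protein of mossy fiber synapses, on chromosome 1 (120340582 to 120343174, plus strand). The 250 bases before the annotated starts of these 3 genes are shown, from RefSeq on GRCm38.p6. Their levels moved together across vHipp libraries (below), and a link of that to these sequences was not tested. Prox1 has a second annotated start, which is not shown. Capitals mark CAGATG, searched on both strands, so that its reverse complement CATCTG also counts. CAGCTG, its own reverse complement, was searched too, and the motifs cannot overlap by their full length.
Prox1, chr1:190170828-190171077, minus strand: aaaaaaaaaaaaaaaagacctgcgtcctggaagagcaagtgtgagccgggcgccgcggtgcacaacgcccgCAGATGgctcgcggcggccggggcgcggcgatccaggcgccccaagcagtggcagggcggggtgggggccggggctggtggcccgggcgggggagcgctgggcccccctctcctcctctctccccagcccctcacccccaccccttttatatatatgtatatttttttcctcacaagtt
Dsp, chr13:38151044-38151293, plus strand: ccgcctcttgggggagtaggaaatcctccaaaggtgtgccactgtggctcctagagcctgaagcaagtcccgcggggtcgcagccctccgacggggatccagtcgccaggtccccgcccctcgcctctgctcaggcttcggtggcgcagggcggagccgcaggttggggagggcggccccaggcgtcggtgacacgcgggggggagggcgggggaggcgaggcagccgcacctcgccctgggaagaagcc
C1ql2, chr1:120340332-120340581, plus strand: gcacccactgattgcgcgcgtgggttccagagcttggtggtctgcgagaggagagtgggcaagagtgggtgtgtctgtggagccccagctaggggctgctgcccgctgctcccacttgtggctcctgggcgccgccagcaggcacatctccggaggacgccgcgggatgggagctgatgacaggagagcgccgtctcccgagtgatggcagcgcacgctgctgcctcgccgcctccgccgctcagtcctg
CAGATG occurred once in the stretch of Prox1 shown, and neither motif occurred at its second start or in the stretches of Dsp and C1ql2. Of the other markers, the CA1 gene Wfs1 also held CAGATG once, and Fibcd1, Amigo2 and Zbtb20 held neither motif. Of 32851 stretches of this length in the table, 14.4% held CAGATG and 13% held CAGCTG. Of the 10 markers, 7 had an entry in the table. Dcn, Trhr and Calb1 had none.

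The first comparison asks how far these genes separate hippocampal from cortical tissue. Values are CPM scaled with TMM factors, and log2 fold changes (LFC) are vHipp minus mPFC, the mean of the 4 groups of each region, with p from the quasi-likelihood test of edgeR, adjusted over 31534 genes by the Benjamini-Hochberg method. Of the 10 markers, 7 were higher in the vHipp and 2 were lower. Over all genes tested, 24.4% were higher and 24.5% were lower. Every vHipp library lay above every mPFC library for 3 of the 10, which was so for 1.18% of all genes.

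Those 3 were Dsp, C1ql2 and Prox1. Dsp had a lowest, median and highest level of 16.1, 64.6 and 124.7 CPM in the 40 vHipp libraries, and of 0.375, 2.01 and 6.87 CPM in the 39 mPFC libraries, an LFC of 5.04 (standard error 0.16, adjusted p = 1.09e-43). C1ql2 had 19.9, 57.4 and 118.2 CPM in the vHipp, and 2.31, 5.89 and 11.6 CPM in the mPFC, an LFC of 3.28 (standard error 0.12, adjusted p = 1.01e-40). Prox1 had 48.1, 149.8 and 287.6 CPM in the vHipp, and 14.5, 22.6 and 34.3 CPM in the mPFC, an LFC of 2.84 (standard error 0.10, adjusted p = 6.73e-40). Prox1 is also known in inhibitory neurons of the cortex. Per kilobase of exon, the median levels in the mPFC were 2.95 CPM for C1ql2 and 2.70 CPM for Prox1, in this order in 20 of 39 libraries, and 0.208 CPM for Dsp. The plot of the markers by group shows the gap between the regions for these genes and the overlap for the others.

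**Figure D1:**
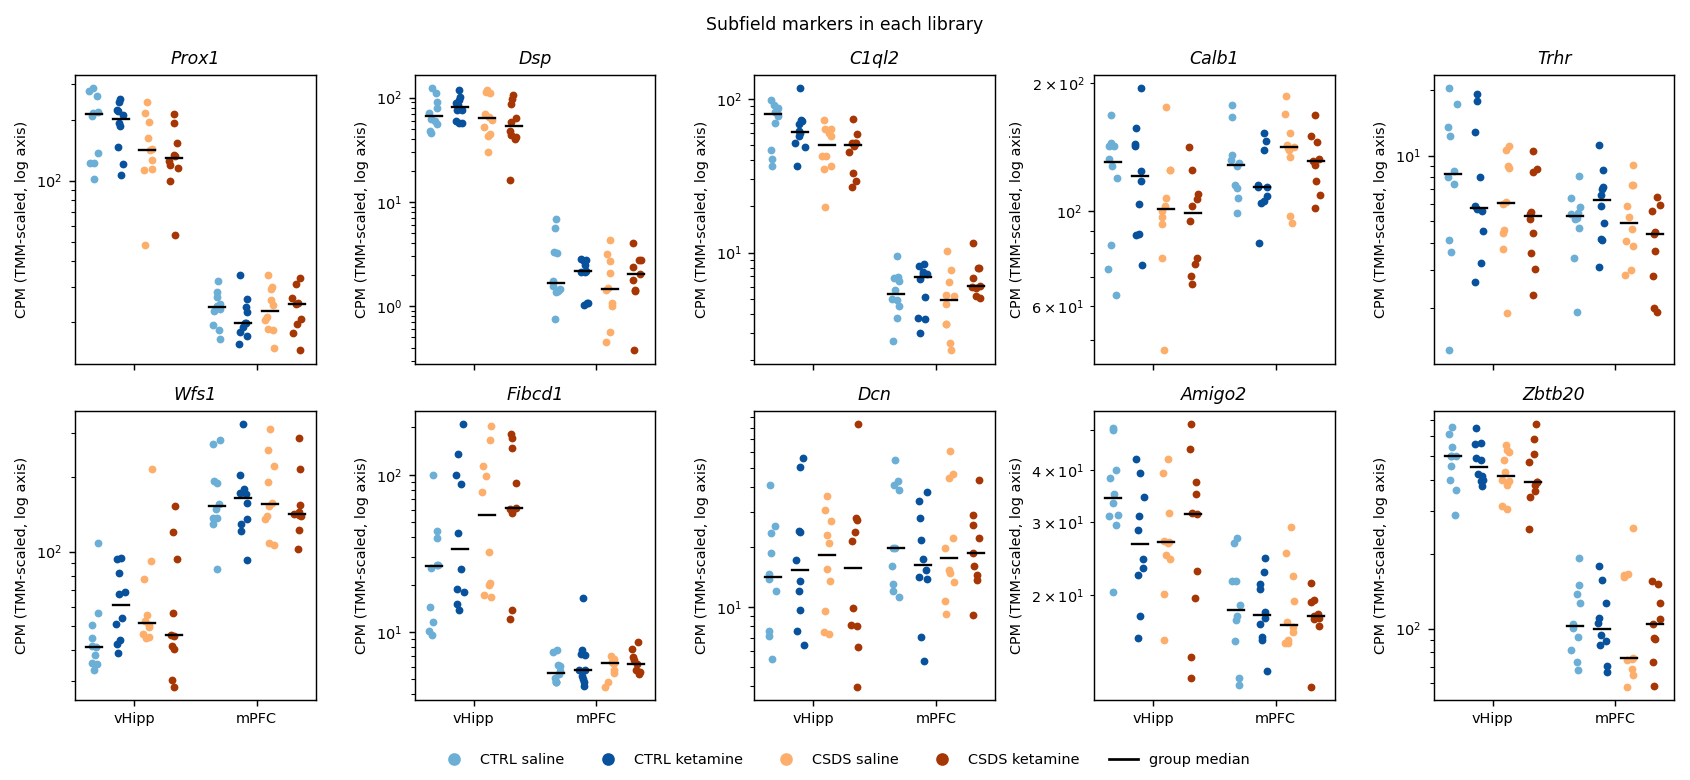
Levels of the 10 markers in each of the 79 libraries, in TMM-scaled CPM on log axes, by region and by group of stress and treatment. Points are libraries and bars are group medians. All 40 vHipp libraries lie above all 39 mPFC libraries for Prox1, Dsp and C1ql2, whereas Dcn, Trhr and Calb1 overlap between the regions.

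Calb1, which encodes the calcium-binding protein calbindin (chromosome 4, 15881264 to 15908064, plus strand), marks granule cells within the hippocampus but is also a gene of cortical neurons. It had 47.2, 107.2 and 194.9 CPM as its lowest, median and highest level in the vHipp and 84.2, 131.3 and 186.7 CPM in the mPFC, an LFC of -0.23 (standard error 0.08, adjusted p = 0.0112). Trhr encodes the receptor of thyrotropin-releasing hormone (chromosome 15, 44196135 to 44235912, plus strand). Its levels were 1.28, 5.92 and 20.5 CPM in the vHipp and 1.92, 5.2 and 11.2 CPM in the mPFC, an LFC of 0.53 (standard error 0.16, adjusted p = 0.00372). The regions overlapped for both, and 7 of 40 vHipp libraries exceeded the highest mPFC library for Trhr.

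The CA1 markers went opposite ways. Fibcd1, a membrane receptor with a fibrinogen-like domain on chromosome 2 (31813290 to 31846005, minus strand), had 9.58, 40.97 and 210.8 CPM in the vHipp and 4.48, 5.72 and 16.3 CPM in the mPFC, an LFC of 3.27 (standard error 0.23, adjusted p = 6.06e-22). It exceeded the highest mPFC library in 32 of 40 vHipp libraries. Its range in the vHipp, with the highest library at 22.0 times the lowest, was the widest of the 10 markers there, just above that of Dcn at 21.0 times. Wfs1, which encodes wolframin of the endoplasmic reticulum and lies on chromosome 5 (36966104 to 36989205, minus strand), had 28.5, 50.1 and 216.4 CPM in the vHipp and 85.1, 153.2 and 328.0 CPM in the mPFC. Its LFC of -1.45 (standard error 0.13, adjusted p = 1.68e-16) put it higher in the cortex, where it is a known gene of upper-layer neurons, and 32 of 40 vHipp libraries lay below the lowest mPFC library.

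Dcn encodes decorin, a small proteoglycan of the extracellular matrix, on chromosome 10 (97479609 to 97518143, plus strand). It had 3.98, 15.1 and 83.5 CPM in the vHipp and 5.37, 18.8 and 61.01 CPM in the mPFC, and did not pass the test between regions (LFC -0.22, standard error 0.21, adjusted p = 0.407). With the mouse as a replicate block, over the 39 mice with both regions, the LFC of Dcn was -0.38 with an adjusted p of 0.0418. Amigo2, a cell adhesion protein with leucine-rich repeats (chromosome 15, 97244125 to 97247287, minus strand), had 12.6, 31.1 and 51.8 CPM in the vHipp and 12.01, 17.8 and 29.2 CPM in the mPFC (LFC 0.70, standard error 0.09, adjusted p = 2.01e-10). Zbtb20, a zinc finger repressor needed for the fate of hippocampal pyramidal neurons (chromosome 16, 42875881 to 43642602, plus strand), had 251.8, 443.6 and 674.1 CPM in the vHipp and 58.2, 100.8 and 254.9 CPM in the mPFC (LFC 2.03, standard error 0.10, adjusted p = 2.11e-30). The regions overlapped by a single library on each side for Zbtb20, and 39 of 40 vHipp libraries exceeded the highest mPFC library.

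**Figure D2:**
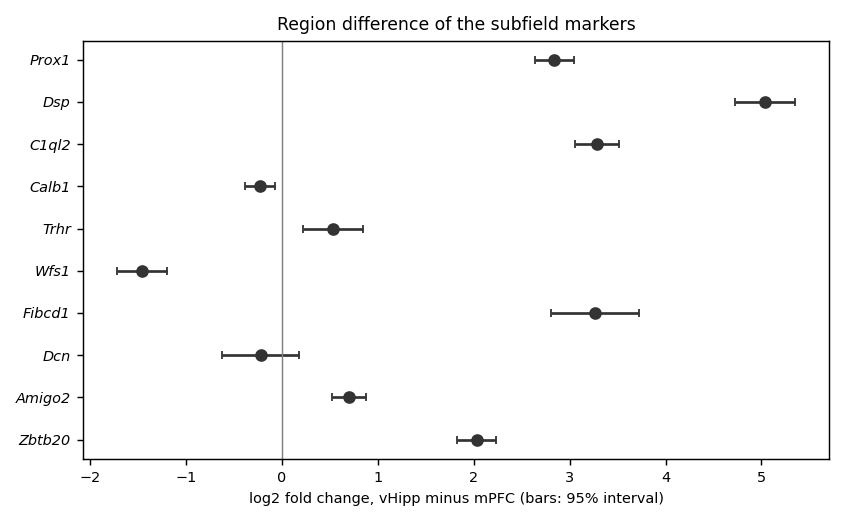
Difference between the regions for each of the 10 markers, as the log2 fold change of vHipp minus mPFC from the edgeR fit, with 95% intervals. Dsp has the largest difference at 5.04, Wfs1 the lowest at -1.45, and the interval of Dcn, from -0.62 to 0.18, includes 0.

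Levels of different genes were compared per kilobase of exon length. In the vHipp, C1ql2 was highest with a median of 28.7 CPM per kb, followed by Calb1 at 22.1, Prox1 at 17.9, Zbtb20 at 14.4 and Wfs1 at 13.2 CPM per kb. Then came Amigo2 at 9.83, Fibcd1 at 8.63, Dsp at 6.69, Dcn at 2.59 and Trhr at 1.48 CPM per kb. Of the neighbours in this order, Zbtb20 and Wfs1 could not be told apart (Zbtb20 was higher in 19 of 40 libraries), nor could Amigo2 and Fibcd1 or Fibcd1 and Dsp, each in this order in 22 of 40 libraries. In the mPFC, Wfs1 led with 40.4 CPM per kb and Calb1 followed with 27.1, in this order in 39 of 39 libraries. The other 8 markers had medians from 0.208 CPM per kb (Dsp) to 5.62 CPM per kb (Amigo2) there.

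Other genes of the same fields were read from lists that hold the markers themselves. The lists overlap: 8 of 97 genes are on more than 1 list, and each of the 5 dorsal genes (Wfs1, Fibcd1, Spink8, Lct and Iyd) is also on the CA1, dentate or CA3 list. Of 15 dentate granule cell genes, 13 were higher in the vHipp and 2 were lower, and the median LFC was 1.37, against 0.000 over all genes tested. The largest differences of this list were those of Dsp, Tdo2 (LFC 4.40) and Lct (LFC 4.12). Of 7 CA3 genes, 6 were higher and 1 was lower. Of 8 CA1 genes, 2 were higher and 4 were lower, and of 8 CA2 genes, 4 were higher and 3 were lower, with Ntf3 at 1.72. Of 7 genes of the ventral hippocampus, 3 were higher and 2 were lower, with Nr2f2 at 2.07 and Coch at -3.29. The cortical list went the other way: 6 of 7 genes of neocortical layers were lower in the vHipp, with Cux2 at -2.55. The libraries labelled vHipp therefore carried dentate, CA3 and pan-hippocampal genes above the cortical level, while the CA1 and ventral lists were mixed between the regions. Of 5 genes of the dorsal hippocampus, 4 were higher in the vHipp and 1 was lower, with a median LFC of 3.27.

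The next question was whether the markers differed by stress or by ketamine. In bulk tissue, fewer cells of a type and less RNA per cell cannot be told apart. In the vHipp and in the mPFC, none of the 10 markers had an adjusted p under 0.05 in any comparison of groups by edgeR, by DESeq2 or in any other fit tried. With saline, CSDS against CTRL in the vHipp, 3 of 10 markers had an unadjusted p under 0.05, and 5.57% of all 28991 genes did. With ketamine, 2 of 10 did, and 5.42% of all genes. Over both treatments together, a comparison added after the data were seen, 4 of 10 did, against 9.71% of all genes. Without the 2 libraries with high Ttr these counts were 2 of 10 with saline, 2 with ketamine and 3 over both.

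C1ql2 had the smallest p of these. Its lowest, median and highest levels in the vHipp were 36.5, 79.2 and 98.3 CPM in CTRL mice with saline, 36.7, 60.7 and 118.2 CPM in CTRL mice with ketamine, 19.9, 49.9 and 73.1 CPM in CSDS mice with saline, and 26.8, 50.2 and 73.5 CPM in CSDS mice with ketamine. The medians of both CSDS groups lay below those of both CTRL groups, and the ranges of all 4 groups overlapped. The LFC of CSDS minus CTRL was -0.51 with saline (standard error 0.20, unadjusted p = 0.0156, edgeR adjusted p = 0.846), -0.45 with ketamine (standard error 0.20, unadjusted p = 0.0317, edgeR adjusted p = 0.896) and -0.48 over both (standard error 0.14, unadjusted p = 0.00168, edgeR adjusted p = 0.325). Over 13 other fits, the adjusted p of the last comparison ranged from 0.0591 to 0.709. Without the libraries with high Ttr, the LFC with saline was -0.43 (unadjusted p = 0.0533).

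Prox1 had 102.3, 212.3 and 287.6 CPM in CTRL mice with saline, 106.8, 202.1 and 251.7 CPM in CTRL mice with ketamine, 48.1, 142.3 and 245.0 CPM in CSDS mice with saline, and 54.03, 128.6 and 213.8 CPM in CSDS mice with ketamine. The lowest values belonged to CSDS mice 4 and 5, and the groups overlapped. The LFC was -0.36 with saline (standard error 0.22, unadjusted p = 0.102), -0.50 with ketamine (standard error 0.22, unadjusted p = 0.0264) and -0.43 over both (standard error 0.15, unadjusted p = 0.00748, edgeR adjusted p = 0.371). Calb1 had group medians of 130.3 and 121.1 CPM in CTRL mice with saline and ketamine and of 101.5 and 98.9 CPM in CSDS mice (LFC over both -0.25, unadjusted p = 0.0524). Trhr had medians of 8.25 and 5.77 CPM in CTRL mice and 6.05 and 5.26 CPM in CSDS mice (LFC over both -0.55, standard error 0.26, unadjusted p = 0.0365, edgeR adjusted p = 0.470). Without the libraries with high Ttr, the last LFC was -0.49 (unadjusted p = 0.0748). It ran over 13 other fits from -0.75 without set 1 (unadjusted p = 0.0112) to -0.22 without set 3 (unadjusted p = 0.426). Dsp showed an LFC of -0.24 over both (standard error 0.17, unadjusted p = 0.159).

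Fibcd1, in contrast, had 9.58, 26.04 and 98.98 CPM in CTRL mice with saline, 13.8, 33.6 and 210.8 CPM in CTRL mice with ketamine, 16.7, 55.01 and 204.7 CPM in CSDS mice with saline, and 12.04, 61.3 and 181.4 CPM in CSDS mice with ketamine. Each group spanned more than the difference between the group medians. The LFC was 1.33 with saline (standard error 0.54, unadjusted p = 0.0169), 0.35 with ketamine (standard error 0.52, unadjusted p = 0.507) and 0.84 over both (standard error 0.37, unadjusted p = 0.0297, edgeR adjusted p = 0.446). With saline it ran over 13 other fits from 0.73 without set 1 (unadjusted p = 0.203) to 1.87 without set 3 (unadjusted p = 0.00208). With ketamine it ran over these fits from 0.09 to 1.01, with a lowest unadjusted p of 0.0772. Wfs1 had an LFC of 0.60 with saline (standard error 0.29, unadjusted p = 0.0407, edgeR adjusted p = 0.887) and of 0.06 with ketamine (unadjusted p = 0.840). With saline, its LFC ran over 13 other fits from 0.12 without set 1 (unadjusted p = 0.680) to 0.91 without set 4 (unadjusted p = 0.00489). Dcn, Amigo2 and Zbtb20 had LFC over both of 0.09, -0.12 and -0.13, with unadjusted p of 0.773, 0.417 and 0.181.

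**Figure D3:**
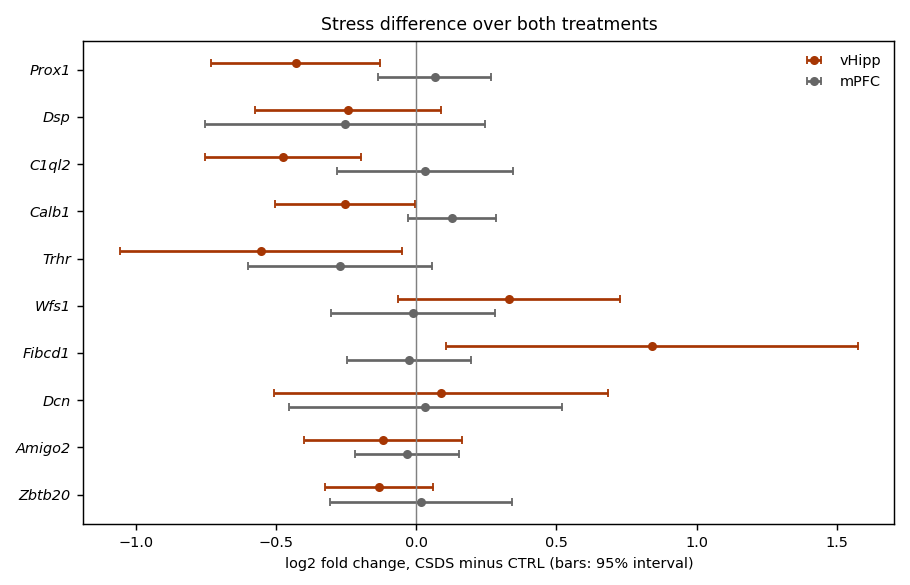
Difference of CSDS minus CTRL mice over both treatments for the 10 markers, as log2 fold changes with 95% intervals, in the vHipp and in the mPFC. The intervals use a normal quantile and are slightly narrower than the edgeR test allows. In the vHipp, those of Prox1, C1ql2, Trhr and Fibcd1 leave out 0, that of Calb1 ends at -0.003 with an unadjusted edgeR p of 0.0524, no adjusted p is under 0.05, and in the mPFC all intervals include 0.

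The dentate and CA1 lists, which were chosen with earlier results of these data known, had values of one sign in this comparison. Of 15 dentate granule cell genes, 15 had a negative LFC over both treatments in the vHipp (median -0.37, against -0.002 over all genes tested), 10 with an unadjusted p under 0.05 and 0 with an adjusted p under 0.05. With saline the median of this list was -0.28 and 1 of 15 genes had an unadjusted p under 0.05, and with ketamine the median was -0.44 and 10 of 15 did. Of 8 CA1 genes, 8 had a positive LFC (median 0.57), 4 with an unadjusted p under 0.05 and 0 with an adjusted p under 0.05. With saline its median was 0.81 and 6 of 8 genes had an unadjusted p under 0.05, and with ketamine the median was 0.26, 7 values were positive and 1 was negative, and 0 of 8 did. Over all genes, 5.57% had an unadjusted p under 0.05 with saline, 5.42% with ketamine and 9.71% over both, in either direction. For the interaction of stress and ketamine, 14 of 15 dentate genes had a negative value (median -0.15) and 0 of 15 had an unadjusted p under 0.05. Of 8 CA1 genes, 8 had a negative value (median -0.58) and 0 of 8 had an unadjusted p under 0.05, against 2.84% of all genes. The difference between the treatments was not tested for a list as a whole. Over both treatments, the other lists of hippocampal fields were split. A positive LFC was found for 5 of 8 CA2 genes (median 0.02) while Amigo2 had -0.12, and for 3 of 5 dorsal genes (median 0.33). A negative LFC was found for 6 of 7 CA3 genes (median -0.14) and 5 of 7 ventral genes (median -0.18). Dcn, a ventral gene, had 0.09, and its sign turned over 13 other fits, from -0.3 to 0.38. Genes of a list share the libraries and covary there, so these counts are not counts of independent results. In the mPFC the dentate list had 7 positive and 8 negative values (median -0.06), and the CA1 list had 2 positive and 6 negative (median -0.03). Genes of other cells had values as follows in the vHipp. Of 6 choroid plexus genes, 6 had a positive LFC over both treatments, 3 with an unadjusted p under 0.05, and the summed level of this list ranged from 17.4 to 699.4 CPM in CSDS mice with saline, from 16.1 to 27.9 CPM in CSDS mice with ketamine, from 14.99 to 30.6 CPM in CTRL mice with saline and from 14.1 to 27.1 CPM in CTRL mice with ketamine. Of 7 astrocyte genes, 7 had a positive LFC, 5 with an unadjusted p under 0.05, with summed levels from 1419 to 2159 CPM in CSDS mice with saline, from 1466 to 4177 CPM in CSDS mice with ketamine, from 1436 to 1921 CPM in CTRL mice with saline and from 1436 to 2068 CPM in CTRL mice with ketamine. None of the genes of these lists was at a median of 0. Of 8 inhibitory neuron genes, 7 had a positive LFC (median 0.10), 2 with an unadjusted p under 0.05, and of 8 leptomeningeal fibroblast genes, 7 had a negative LFC (median -0.18), 1 with an unadjusted p under 0.05. Their part in the values of the markers was not tested. Without the libraries with high Ttr, the LFC over both treatments was -0.41 for Prox1, -0.44 for C1ql2 and 0.89 for Fibcd1.

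Ketamine against saline in the vHipp gave 1 marker of 10 with an unadjusted p under 0.05 in CTRL mice, Fibcd1 (LFC 1.12, standard error 0.53, unadjusted p = 0.0414), against 2.88% of all genes. Over 13 other fits this LFC ran from 0.41 without set 1 (unadjusted p = 0.471) to 1.60 without set 3. In CSDS mice it gave none of the 10, against 2.9% of all genes. The interaction of stress and ketamine gave none of the 10, against 2.84% of all genes, so the stress differences with saline and with ketamine were not shown to differ for any marker. For Fibcd1 the interaction was -0.98 with a 95% interval from -2.44 to 0.48, and its sign turned without set 1, at 0.29, against -1.70 without set 3. For Prox1 it was -0.14, from -0.74 to 0.46. In the mPFC, CSDS against CTRL gave none of the 10 with saline, 1 with ketamine and none over both treatments, against 2.94%, 5.8% and 3.52% of 28993 genes. The 1 marker was Trhr (LFC -0.59, standard error 0.24, unadjusted p = 0.0181, edgeR adjusted p = 0.830), with medians of 6.24 CPM in CTRL and 4.39 CPM in CSDS mice. Ketamine against saline gave none in CTRL mice (3.64% of all genes) and none in CSDS mice (4.32%), and the interaction gave none (5.31%).

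The next comparison asks whether the markers of a field vary together between libraries of the same group. Levels were taken as log2(CPM + 0.5) with the mean of each group subtracted. Pearson's r and Spearman's rho were computed for all 45 pairs in each region, with p from 100000 permutations within groups and Benjamini-Hochberg adjustment over 90 pairs. The smallest p these permutations can give is 1e-05. Both genes of a pair are read from the same punch of tissue at the same depth, and the libraries of a set carry adjoining library numbers. In the vHipp, 16 of 45 pairs had an adjusted p under 0.05 by Pearson's r and 12 by Spearman's rho. The share among pairs of other genes was not computed, so these counts cannot be called high or low.

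**Figure D4:**
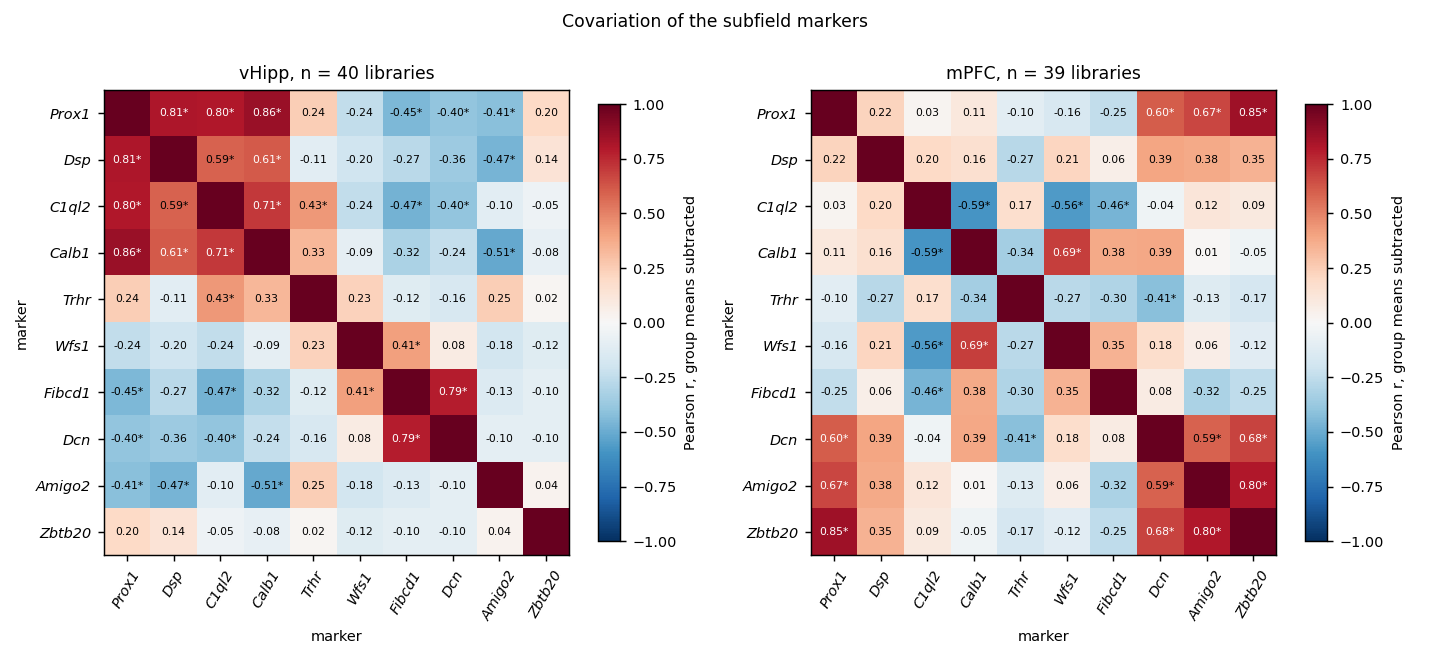
Pearson's r of each pair of markers across the 40 vHipp and the 39 mPFC libraries, with group means subtracted, on a color scale from -1 to 1. Stars mark pairs with an adjusted permutation p under 0.05, which are 16 of 45 in the vHipp and 11 of 45 in the mPFC. The 6 pairs of Prox1, Dsp, C1ql2 and Calb1 lie between 0.588 and 0.865 in the vHipp, and the C1ql2 and Calb1 pair is at -0.586 in the mPFC.

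The 6 pairs among Prox1, Dsp, C1ql2 and Calb1 were all positive in the vHipp. Prox1 and Calb1 had r = 0.865 (rho = 0.836), Prox1 and Dsp had r = 0.805 (rho = 0.797), and Prox1 and C1ql2 had r = 0.802 (rho = 0.750), each with a permutation p of 1e-05 and an adjusted p of 0.000112. C1ql2 and Calb1 had r = 0.706 (rho = 0.652, adjusted permutation p = 0.0002), Dsp and Calb1 had r = 0.611 (rho = 0.603, adjusted permutation p = 0.000245), and Dsp and C1ql2 had r = 0.588 (rho = 0.573, adjusted permutation p = 0.000969). Without the 2 libraries farthest from the median of the first gene, these values were between 0.490 and 0.852. Within sets, Prox1 and Dsp ranged from 0.698 to 0.978 and Prox1 and C1ql2 from 0.448 to 0.922, positive in 5 of 5 sets, as were Prox1 and Calb1 (0.122 to 0.970). The other 3 pairs were positive in 4 of 5 sets. In the mPFC, 5 of these pairs had r between 0.03 and 0.22, and C1ql2 and Calb1 had r = -0.586 (rho = -0.520, adjusted permutation p = 0.00174), the opposite sign of the vHipp value.

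For Trhr, the r with C1ql2 was 0.430 in the vHipp (rho = 0.374, adjusted permutation p = 0.0316 by Pearson and 0.07 by Spearman, 0.383 without the 2 farthest libraries), and with Prox1, Dsp and Calb1 it was 0.24, -0.11 and 0.33, none with an adjusted p under 0.05. With the summed level of the ventral hippocampus list, without the markers themselves, Trhr had r = 0.793 (rho = 0.834, adjusted permutation p = 0.000213 over 320 relations), and with the dorsal list r = -0.506 (rho = -0.522, adjusted permutation p = 0.00922). These were 0.769 and -0.502 without the 2 farthest libraries. Calb2, a gene of the summed ventral list, ran from 10.5 to 278 CPM in the vHipp and had r = 0.79 with Trhr by itself. How far this gene carries the value of the list was not tested. Prox1 had r = 0.976 with the summed dentate list (rho = 0.977, 0.968 without the 2 farthest libraries) and -0.02 with the ventral list. With the dorsal list, Dsp had r = 0.706 (rho = 0.658, adjusted permutation p = 0.000213, 0.742 without the 2 farthest libraries) and Prox1 had 0.348 (rho = 0.394, adjusted permutation p = 0.12), while Dsp had -0.335 with the ventral list (rho = -0.218, adjusted permutation p = 0.139). Without the markers, the dorsal list is Lct, Spink8 and Iyd, of which Lct is also a dentate gene, so it is not separate from the other lists.

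Among the CA1 and ventral markers, Fibcd1 and Dcn had the highest value in the vHipp, r = 0.785 (rho = 0.768, permutation p = 1e-05, adjusted p = 0.000112). It was 0.745 without the 2 farthest libraries, between 0.764 and 0.820 with each library left out in turn, and between 0.689 and 0.820 within sets. In the mPFC the same pair had r = 0.08. Wfs1 and Fibcd1 had r = 0.407 in the vHipp (rho = 0.419, adjusted permutation p = 0.0427), which was 0.377 without the 2 farthest libraries and 0.337 without mouse 4, and Wfs1 and Dcn had r = 0.08. With the summed CA1 list, Wfs1 had r = 0.751, Fibcd1 had 0.743 and Dcn had 0.531 (rho 0.747, 0.734 and 0.527, adjusted permutation p of 0.000213, 0.000213 and 0.00922), and 0.696, 0.719 and 0.458 without the 2 farthest libraries. Lists of other fields and cells also moved with these markers: Wfs1 had r = -0.520 with the CA3 list (rho = -0.547, adjusted permutation p = 0.00975) and 0.482 with the striatum list (rho = 0.564, adjusted permutation p = 0.038), and Fibcd1 had 0.435 with the inhibitory neuron list (rho = 0.413, adjusted permutation p = 0.0337). Without the 2 farthest libraries these were -0.501, 0.542 and 0.489. With the CA2 list Wfs1 had 0.374 (rho = 0.402, adjusted permutation p = 0.0496, 0.227 without the 2 farthest libraries). By Spearman alone it also passed with the astrocyte list (r = 0.413, rho = 0.580, adjusted permutation p = 0.00373), the neocortical list (r = 0.370, rho = 0.470, adjusted permutation p = 0.0234), the inhibitory neuron list (r = 0.294, rho = 0.408, adjusted permutation p = 0.0474) and, with a negative sign, the hippocampal excitatory neuron list (r = -0.383, rho = -0.483, adjusted permutation p = 0.0169). Of 160 relations of a marker with a list or the library total in the vHipp, 27 had an adjusted p under 0.05 by Pearson and 32 by Spearman, and only some are named here. For all of these lists, the part of these cells in the levels of the markers was not tested. Fibcd1 is known from dorsal and Dcn from ventral CA1, and the differences between these correlations were not tested.

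**Figure D5:**
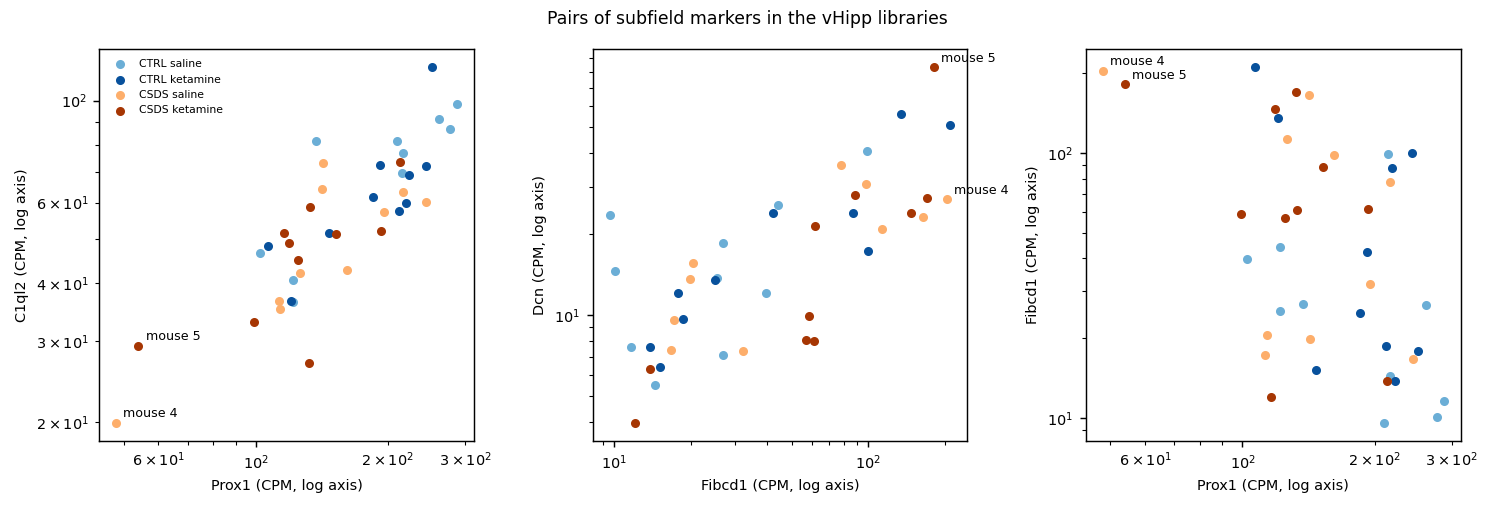
Levels of 3 pairs of markers in the 40 vHipp libraries, in TMM-scaled CPM on log axes, colored by group. Prox1 and C1ql2 rise together, as do Fibcd1 and Dcn, whereas Fibcd1 is high in the libraries of mice 4 and 5, which have the lowest Prox1.

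Between Prox1, Dsp, C1ql2 and Calb1 on one side and Wfs1, Fibcd1 and Dcn on the other, 12 of 12 pairs had a negative r in the vHipp, 4 of them with an adjusted p under 0.05 by Pearson and 1 by Spearman. Prox1 had r = -0.447 with Fibcd1 (rho = -0.356, adjusted permutation p = 0.0223 by Pearson and 0.0805 by Spearman), C1ql2 had -0.471 with Fibcd1 (rho = -0.407, adjusted permutation p = 0.0132 and 0.049), and Dcn had -0.397 with Prox1 and -0.395 with C1ql2 (rho -0.289 and -0.370, adjusted permutation p = 0.0427 for both by Pearson). Without the 2 farthest libraries, r was -0.332 for Prox1 and Fibcd1, -0.400 for C1ql2 and Fibcd1 and -0.362 for C1ql2 and Dcn. For Prox1 and Dcn it was -0.259 (permutation p = 0.119), so this relation rests on those libraries, and without mouse 5 alone it was -0.289. Within sets, Prox1 and Dcn ranged from -0.835 to 0.650, negative in 3 of 5 sets, and C1ql2 and Dcn from -0.664 to 0.329, negative in 4 of 5. The other 8 pairs, among them the 4 of Wfs1, had r from -0.361 to -0.0922 (adjusted permutation p from 0.0991 to 0.684), and from -0.344 to 0.201 without the 2 farthest libraries. C1ql2 and Fibcd1 were negative in 5 of 5 sets. Prox1 and Fibcd1 were negative in 3 of 5 sets, with within-set values from -0.673 to 0.364, and r was -0.255 with set means subtracted too (adjusted permutation p = 0.265). Fibcd1 had a median of 141.1 CPM in the 8 vHipp libraries of set 1 and of 66.3, 28.5, 22.3 and 22.6 CPM in sets 2 to 5, and Prox1 had 119.7 CPM in set 1 and 182.2, 188.8, 219.7 and 144.9 CPM in the others. The libraries of mice 4 and 5, both CSDS, lay at 48.1 and 54.03 CPM of Prox1, with 204.7 and 181.4 CPM of Fibcd1. Mouse 4 also had the highest Wfs1 of the vHipp, 216.4 CPM, and mouse 5 the highest Dcn, 83.5 CPM. Among the same 12 pairs in the mPFC, 5 had a negative r, and 4 passed the threshold by Pearson and 5 by Spearman. C1ql2 and Fibcd1 had r = -0.464 there (rho = -0.494, adjusted permutation p = 0.011), close to the vHipp value, so this relation was not particular to the vHipp. Prox1 and Dcn had r = 0.604 there (adjusted permutation p = 0.000375), the opposite sign of the vHipp value.

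Amigo2 had a negative r with all 4 dentate markers, and for C1ql2 it was -0.105 with an adjusted permutation p of 0.654 (within sets -0.293 to 0.773). The other 3 passed the threshold, with r = -0.415 for Prox1 (rho = -0.460, adjusted permutation p = 0.0342), -0.465 for Dsp (rho = -0.465, adjusted permutation p = 0.0282) and -0.509 for Calb1 (rho = -0.515, adjusted permutation p = 0.00307), each negative in 5 of 5 sets. Without the 2 farthest libraries these were -0.363, -0.438 and -0.455. With the summed CA2 list it had r = -0.01 in the vHipp, and with the summed CA3 list 0.524 (rho = 0.429, adjusted permutation p = 0.0125, 0.392 without the 2 farthest libraries). Zbtb20 had r between -0.12 and 0.20 with the other 9 markers in the vHipp, none with an adjusted p under 0.05. With the summed thalamus list it had r = 0.432 (rho = 0.458, adjusted permutation p = 0.0279, 0.375 without the 2 farthest libraries), and C1ql2 had -0.404 with that list (rho = -0.381, adjusted permutation p = 0.047 by Pearson and 0.0681 by Spearman). The part of thalamic tissue in these levels was not tested.

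The mPFC held a different set of pairs. Of 45 pairs, 11 had an adjusted p under 0.05 by Pearson's r and 11 by Spearman's rho. Both regions shared 4 pairs past the threshold, of which 1, C1ql2 and Fibcd1, had the same sign. Prox1 and Zbtb20 had r = 0.848 (rho = 0.875), Zbtb20 and Amigo2 had 0.797 (rho = 0.824), and Prox1 and Amigo2 had 0.667 (rho = 0.718), each with an adjusted permutation p of 0.000112. Zbtb20 and Dcn had 0.676 (rho = 0.665, adjusted permutation p = 0.000245) there, and Wfs1 and Calb1 had 0.693 (rho = 0.597, adjusted permutation p = 0.000112), while C1ql2 and Wfs1 had -0.565 (rho = -0.563, adjusted permutation p = 0.00236). Without the 2 farthest libraries, the values of these 6 pairs were 0.849, 0.741, 0.689, 0.647, 0.639 and -0.488, in the same order. Genes of other cells covaried with Dcn and Zbtb20 in the mPFC. Dcn had r = 0.919 with the summed leptomeningeal fibroblast list (rho = 0.908, adjusted permutation p = 0.000213) and 0.858 with the astrocyte list, and Zbtb20 had 0.601 and 0.637 with the same lists. Without the 2 farthest libraries these were 0.917, 0.856, 0.519 and 0.554. The summed fibroblast list ranged from 26.2 to 232.6 CPM in the mPFC and from 25.3 to 76.7 CPM in the vHipp, where its r with Dcn was 0.10. The part of these cells in the levels of Dcn and Zbtb20 was not tested.

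The levels of a marker in the vHipp and in the mPFC of the same mouse were compared over 39 mice. No marker had an adjusted permutation p under 0.05. Dcn had the highest value, r = 0.328 (rho = 0.317, permutation p = 0.0494, adjusted p = 0.494 over 10 markers, 0.242 without the 2 farthest mice), and Prox1 had r = 0.02.

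Over 15575 genes with a mean of at least 1 CPM in the vHipp, the genes most like each marker were read from Pearson's r over the 40 libraries, as a description. Cemip (r = 0.96), Dock10 (0.95) and Kif26b (0.95) were most like Prox1, and Plekha2 (0.91), Fam163b (0.89) and Npnt (0.88) most like Dsp. C1ql2 was followed by Scnn1a (0.89), a subunit of the epithelial sodium channel, and by Trpc6 (0.87), a cation channel, and Htra4 (0.87). Calb1 was followed by Gpc4 (0.93), Dbpht2 (0.93) and Nek10 (0.92). The genes most like Trhr were Adcyap1 (0.86), which encodes the neuropeptide PACAP, Ngb (0.81), which encodes neuroglobin, and Calb2 (0.79), which encodes calretinin and is known from mossy cells.

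Fibcd1 and Dcn shared the matrix gene Fbln2, with r = 0.84 and 0.82. Fibcd1 was further followed by Chrm5 (0.82), a muscarinic receptor with a median of 0.863 CPM, and by March3 (0.79), and Dcn by Sulf1 (0.85), a sulfatase of heparan sulfate, and Dio3 (0.79), which inactivates thyroid hormone. Arhgap12 (0.85), Diaph3 (0.83) and Gm2115 (0.83) were most like Wfs1, and Bves (0.90), Flrt3 (0.82) and Rxfp3 (0.82), a receptor of relaxin-3, most like Amigo2. Zbtb20 was followed by Nfat5 (0.92), Tnrc6b (0.89) and Tmem245 (0.88), none of which is on a subfield list here.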

How the data were processed

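The authors made stranded mRNA libraries from tissue punches of each region (miRNeasy Micro Kit, 100 ng of total RNA), sequenced them paired-end and deposited raw counts per gene on GRCm38. The submitters' processing notes name bcl2fastq 2.20.0.422 and CASAVA. The aligner and counter are not given in the sources used here. Samples of low RNA integrity and an unnamed outlier were removed by the authors.

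Genes with more than 10 counts in total and detected in more than 3 libraries were tested with edgeR 4.0.16 (R 4.3.3, TMM factors), with an adjusted p threshold of 0.05, against DESeq2 1.42.0 and other settings. All 8 groups were fitted together for the region difference, and the 4 groups of a region for the others. All tests were two-sided. The main edgeR fit, for stress with saline in each region, and the permutation test of Pearson's r were tried on simulated data. The other fits were not. Exon lengths came from the deposited table. CPM were computed here. Libraries with the same number came from the same mouse, so that number pairs the regions: over 15701 genes, deviations of the same mouse correlated with a median r of 0.263, above 0.1 in 36 of 39 pairs, against -0.003 between different mice. Replicates are mice.

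The markers and lists were chosen with earlier results of these data known. Named genes were the 10 markers, for each list up to 3 genes of the largest region difference and the 3 genes most like each marker. The value of 1 gene of the CA1 list is not reported here. Ttr is also named outside the region difference, chosen after its values were seen. The stress comparison over both treatments, the leaving out of single libraries and the correlations with summed lists were added after the data were seen.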

Additional observations from a re-analysis of the deposited data

Results flagged for a closer look

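Of 80 sets of values (10 markers in 8 groups), 9 held a library set apart from the others of its group by Dixon's criterion. For normal values, chance gives about 1 in 20. The criterion was applied to CPM without logs, which need not be normal, so this rate may not hold here. Wfs1 reached 216.4 CPM in the vHipp of mouse 4 (CSDS, saline), with the nearest library at 91.4 CPM, 108.5 CPM in the vHipp of mouse 35 (CTRL, saline), with the nearest at 56.7 CPM, and 328.0 CPM in the mPFC of mouse 23 (CTRL, ketamine), with the nearest at 203.4 CPM. Fibcd1 reached 98.98 CPM in the vHipp of mouse 30 (CTRL, saline), with the nearest at 44.1 CPM, and 16.3 CPM in the mPFC of mouse 21 (CTRL, ketamine), with the nearest at 7.67 CPM. C1ql2 reached 118.2 CPM in the vHipp of mouse 36 (CTRL, ketamine), with the nearest at 72.4 CPM, and 11.6 CPM in the mPFC of mouse 3 (CSDS, ketamine), with the nearest at 7.97 CPM. Dcn reached 83.5 CPM in the vHipp of mouse 5 (CSDS, ketamine), with the nearest at 27.9 CPM. Amigo2 had 12.01 CPM in the mPFC of mouse 12 (CSDS, ketamine), the lowest of its group, with the nearest at 16.8 CPM.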

How the results depend on the processing

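The 9 markers past the threshold between regions kept their direction and their call under 7 other settings, and Dcn alone changed its call: with the mouse as a replicate block it had an LFC of -0.376, and 15709 of all genes were called with this block against 15415 without. In the comparisons of stress and ketamine, no marker was called under any of the settings, by edgeR or DESeq2. Over all genes, DESeq2 with the set as a covariate called 1 gene for stress with saline in the vHipp, 2 for stress with ketamine in the mPFC, 2 for stress over both treatments in the mPFC and 77 in the vHipp, where DESeq2 without the set called 14. EdgeR called 0 in each of these. Of the genes on the lists, Dock10, a dentate gene, was called in 1 of these fits (DESeq2 with the set, stress over both treatments, LFC -0.35, adjusted p = 0.0488, range over all fits 0.0488 to 0.709). The cause was not tested. In the vHipp, 16 pairs of markers passed the threshold, against 10 with set means subtracted too, 8 without set 1, 9 without set 2 and 8 without set 4, and in the mPFC 11 pairs against 6 without set 1. Fits without a set hold fewer libraries. Pairs of Prox1, Dsp, C1ql2 and Calb1 in the vHipp, and Fibcd1 with Dcn, passed under each of these and the other settings for which an adjusted p was computed. Genes near 1 CPM are limited by depth, which among the markers touches Dsp in the mPFC. It also touches the lowest libraries of Trhr, at 1.28 CPM in the vHipp and 1.92 CPM in the mPFC.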
